A study of Mus musculus with 4 samples.

Results

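Keratins are the intermediate filament proteins of epithelial cells, and 10 of them were followed here through mouse lung tumours: Krt7, Krt8, Krt18, Krt19, Krt17, Krt20, Krt5, Krt14, Krt23 and Krt79. They were taken by symbol from the 32289 features of the gene tables, which hold 49 keratin features in all. Counts were unique molecular identifiers (UMIs), each standing for 1 captured transcript molecule, in single cells from 4 droplet libraries, 1 per group. The mice of every group had the same genotype, which included a G12D allele, p53frt, Rosa-FSF-CreERT2 and Hnf4aflox. In the FSF allele a stop cassette lies between frt sites, so Flp recombinase switches on the tamoxifen-dependent Cre, and it deletes p53. Flp came from an adenovirus in which the mouse surfactant protein C promoter, a promoter of alveolar type 2 cells, drives FlpO. The animals received tamoxifen or vehicle 10 weeks after the virus, and cells were collected 2 weeks later from macroscopic tumours. The vehicle is named as ethanol in one label and as corn oil in another. Each treatment gave a library before and a library after magnetic depletion of CD45-positive and CD31-positive cells, that is of leukocytes and endothelium. The libraries before and after depletion are portions of the same suspensions, so they do not replicate each other, and how many animals went into each suspension is not stated. Cells were cryopreserved, thawed and sorted as live single cells.

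With 1 library per group no p-value was computed. The 95% intervals below cover counting error only, and the spread between animals is unknown. Levels are given as CPM, the UMIs of a gene per 1000000 UMIs of the summed cells, and values of the 4 libraries always follow the order vehicle before depletion, vehicle after, tamoxifen before, tamoxifen after. In 3′ counting a transcript gives about 1 tag whatever its length, so CPM of different keratins can be set side by side. After filtering, the libraries held 7079, 6923, 6111 and 7358 cells, with median UMIs per cell between 9302 and 17733. Between 10 and 18 cell barcodes were shared by any pair of libraries. Of these cells, 1090, 6526, 1109 and 7087 were epithelial-like, and all 9 epithelial markers, none of them a keratin, reached 10 CPM there in every library. The gene that tamoxifen was meant to delete did not fall: Hnf4a stood at 56.5, 55.0, 86.05 and 83.04 CPM in epithelial-like cells. A 3′ count does not show which exons a transcript holds. The treated libraries are therefore called the libraries labelled tamoxifen throughout.

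Keratins assemble as pairs of a type I and a type II chain, and a filament needs both. Krt8 (type II) with Krt18 (type I) is the pair of simple, single-layered epithelium. Krt7 (type II) and Krt19 (type I) join it in ducts, airways and alveolar type 1 cells. Krt5 with Krt14 is the pair of basal cells of stratified epithelium and airway, Krt17 is an injury-associated type I keratin, and Krt20 is a type I keratin best known from intestine, stomach and urothelium. A Krt8-high state is known from lung epithelium on its way from alveolar type 2 to alveolar type 1 cells after injury. Krt23 is a type I and Krt79 a type II keratin.

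The 10 genes sit in the 2 keratin clusters of the mouse genome (GRCm38, gene models of GENCODE M21). Chromosome 11 holds 5 of them, all type I and all on the minus strand: Krt20 (ENSMUSG00000035775, 99428403 to 99438150), Krt23 (ENSMUSG00000006777, 99477974 to 99493137), Krt19 (ENSMUSG00000020911, 100140810 to 100148665), Krt14 (ENSMUSG00000045545, 100203162 to 100207548) and Krt17 (ENSMUSG00000035557, 100256217 to 100261029). Chromosome 15 holds the other 5: Krt7 (ENSMUSG00000023039, 101411043 to 101430313, plus strand), Krt5 (ENSMUSG00000061527, 101707070 to 101712898, minus), Krt79 (ENSMUSG00000061397, 101929332 to 101940324, minus), Krt8 (ENSMUSG00000049382, 101996698 to 102004482, minus) and Krt18 (ENSMUSG00000023043, 102028180 to 102032027, plus). Krt18 is thus the only type I gene in the type II cluster, next to its partner Krt8.

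Krt7, Krt8 and Krt18 are the keratins that were high in both of the keratin-rich states described below, and their promoters are shown for that reason. Each is 300 bases of RefSeq sequence (GRCm38.p6), from 250 bases before to 50 after the annotated start, 5′ to 3′ on the gene's strand. Capitals mark a match to the GC box GGGCGG or to TATAAA, on either strand.
Krt7, chr15:101412153-101412452, plus strand: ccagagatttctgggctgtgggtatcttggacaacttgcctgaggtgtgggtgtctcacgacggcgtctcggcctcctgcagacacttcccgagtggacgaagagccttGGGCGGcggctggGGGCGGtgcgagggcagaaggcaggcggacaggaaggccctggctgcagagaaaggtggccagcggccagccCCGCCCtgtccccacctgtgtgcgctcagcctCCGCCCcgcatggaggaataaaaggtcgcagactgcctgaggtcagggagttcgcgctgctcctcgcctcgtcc
Krt8, chr15:102004293-102004592, minus strand: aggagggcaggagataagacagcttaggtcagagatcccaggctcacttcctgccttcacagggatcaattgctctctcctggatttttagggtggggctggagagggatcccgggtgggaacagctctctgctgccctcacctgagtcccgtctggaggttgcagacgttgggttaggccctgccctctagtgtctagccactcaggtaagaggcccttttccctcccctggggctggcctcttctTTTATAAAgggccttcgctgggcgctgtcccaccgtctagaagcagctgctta
Krt18, chr15:102027966-102028265, plus strand: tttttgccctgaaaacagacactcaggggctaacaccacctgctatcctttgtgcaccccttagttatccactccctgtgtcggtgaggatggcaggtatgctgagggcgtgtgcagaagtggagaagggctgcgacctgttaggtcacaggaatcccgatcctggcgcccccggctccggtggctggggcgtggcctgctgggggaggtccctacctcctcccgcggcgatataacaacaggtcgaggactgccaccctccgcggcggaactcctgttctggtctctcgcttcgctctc
The Krt7 window held 4 GC boxes, and GGGCGG was found in 35.7% of 32851 promoters of the same length. The Krt8 window held TATAAA once on each strand, overlapping, and this motif was found in 13.6% of promoters. Neither motif was in the Krt18 window, and the AP-1 motif TGANTCA, found in 7.81% of promoters, was in none of the 8 keratin windows matched, which are those of all members but Krt17 and Krt19. The G and C content was 66.3% for Krt7, 58.0% for Krt8 and 61.3% for Krt18. These matches describe letters only: binding was not measured.

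The epithelial-like tumour cells had the keratins of simple epithelium. Krt18 was the most abundant member in every library, at 1918, 2829, 1920 and 2259 CPM. Krt8 followed with 1379, 1708, 1271 and 1388 CPM. Both libraries taken after depletion lay above their own sample before depletion for each gene of the pair. Krt19 stood at 459, 631, 464 and 450 CPM. Krt7, its type II counterpart, was close to it at 447, 578, 499 and 496 CPM. Krt19 was above Krt7 in the vehicle libraries and below it in the libraries labelled tamoxifen. These 4 keratins made up between 97.2% and 97.7% of all keratin UMIs, and Krt8 with Krt18 alone between 75.0% and 77.6%. All keratins together took 0.433%, 0.588%, 0.426% and 0.47% of the UMIs of epithelial-like cells.

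The remaining members were lower in every library. Krt23 was even across libraries, at 55.8, 62.6, 51.9 and 60.2 CPM. Krt79 was at 8.48, 14.7, 16.0 and 9.37 CPM, Krt14 at 7.52, 11.8, 5.58 and 4.87 CPM. Krt17 was at 16.4, 11.7, 2.26 and 3.41 CPM, so its vehicle libraries lay above both libraries labelled tamoxifen. Krt20, at 5.37, 7.52, 1.02 and 1.92 CPM, had the same order. Krt5, the basal type II partner of Krt14, was nearly absent, with 3, 19, 2 and 14 UMIs in all epithelial-like cells. Krt14 thus had many more UMIs than its usual type II partner. Of the other 39 keratin features, 7 had no UMI, 31 stayed below 10 CPM, and Krt10, a suprabasal keratin of skin, reached it narrowly at 10.2, 9.53, 9.67 and 10.5 CPM.

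**Figure D1:**
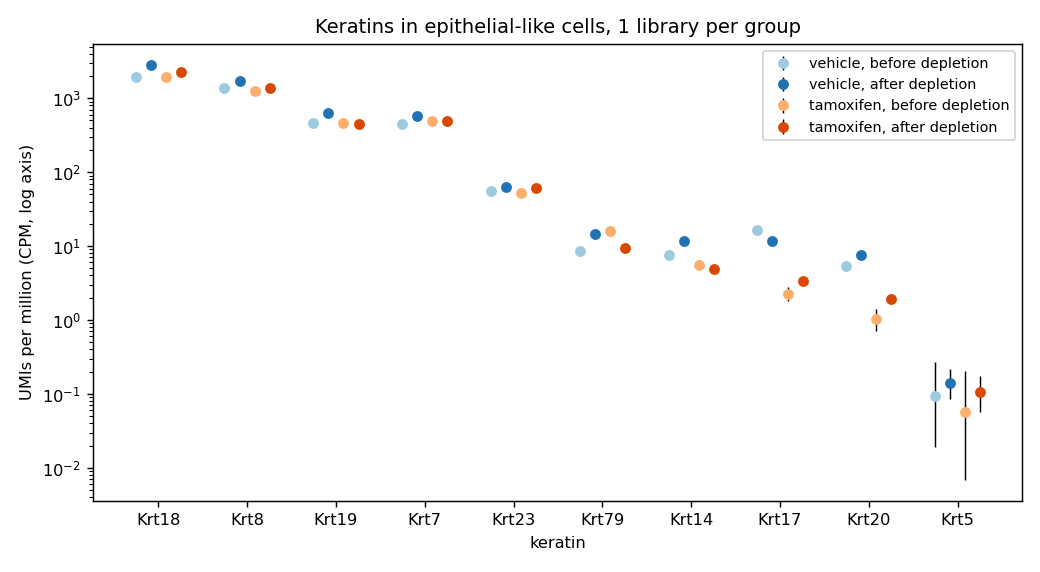
Levels of the 10 keratins in epithelial-like cells, in CPM on a log axis; each point is 1 library and bars are exact Poisson 95% intervals, hidden by the point where narrow. Krt18, Krt8, Krt19 and Krt7 lie above all other members in all libraries, Krt23 between 51.9 and 62.6, and Krt5 below 0.2.

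Detection was also read cell by cell, against a background. Each cell was thinned to 2000 UMIs, which removes differences in depth, and endothelial-like cells, which should lack these genes, served as background. Their median depths ran from 7299 to 13978 UMIs, against 16847 to 28761 in epithelial-like cells. A Krt18 UMI was seen in 74.5%, 85.3%, 82.7% and 85.6% of epithelial-like cells after thinning, and a Krt8 UMI in 75.2%, 79.4%, 72.8% and 77.7%. Endothelial-like cells had a Krt8 UMI in 1.94%, 11.04%, 0.667% and 7.32% of cells, so the background was higher in the libraries taken after depletion. Krt7 (35.9% to 43.2%), Krt19 (37.5% to 46.5%) and Krt23 (8.55% to 11.5%) were also above the upper bound of the background in every library. Without thinning the shares were larger, for example 94.3% to 98.0% for Krt18. For the other 5 members the thinned share lay below the upper bound of the background in at least 1 library. Krt17, for instance, was found in 1.17%, 1.24%, 0.273% and 0.355% of epithelial-like cells. No thinned endothelial-like cell had a Krt17 UMI, and with so few of these cells the upper bound was between 2.24% and 2.96%. T cell-like cells before depletion, a second background, had a Krt17 UMI in 0.267% (vehicle) and 0.299% (labelled tamoxifen) of thinned cells, from 3 and 2 cells. The epithelial-like share in the library labelled tamoxifen before depletion was not above this. Krt8 and Krt18 were found together in 61.4%, 71.4%, 63.9% and 69.4% of epithelial-like cells. Independent detection would have given 56.0%, 67.7%, 60.2% and 66.5%. For Krt7 with Krt18 the shares were 31.1%, 40.0%, 32.3% and 35.6%, against 27.7%, 36.8%, 29.7% and 33.1%. An excess was thus not particular to Krt8 with Krt18.

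Epithelial-like cells were then clustered into 15 states, with every keratin left out of the genes clustered on, and each state was called by its leading gene or, where its markers allowed, by a cell type. Contrasts of a state with the remaining cells are descriptions, since other genes that move with keratins helped to define the states. A keratin was counted as higher in a state when it was at least 2-fold above the other epithelial-like cells of the same library in every library with at least 50 cells of that state, and reached 10 CPM there. Folds of this kind carry a pseudocount of 1 CPM.

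One state stood out by its keratins in all libraries. It was led by Mcpt1, Tff1, Mcpt2, Procr and Tpsab1 and held 135, 1318, 131 and 1217 cells. Keratins took 0.953%, 1.11%, 1.03% and 1.02% of its UMIs. Krt7, Krt8, Krt18 and Krt19, above 10 CPM in all epithelial-like cells, were higher there than in the other epithelial-like cells. Krt17, Krt14 and Krt79 met the rule too, but they reached 10 CPM in this state and not in the rest, so their count adds no support. Of all 8139 genes tested, 354 met the same rule (4.35%), and the median log2 difference over all genes was between 0.15 and 0.16. The state had all 9 markers of the alveolar transitional list detected, but it stayed unnamed because proteases and stomach genes led it.

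In the Mcpt1-led state Krt7 stood at 1353, 1527, 1813 and 1547 CPM, against 281, 320, 286 and 266 CPM in the other epithelial-like cells, a difference of 4.76-fold to 6.32-fold. Krt19 stood at 1166, 1391, 1533 and 1201 CPM, 3.28-fold to 5.25-fold above the rest. The pair of simple epithelium stood out less. Krt8 was at 2793, 3060, 2715 and 2771 CPM (2.28-fold to 2.62-fold) and Krt18 at 3908, 4830, 4019 and 4440 CPM (2.12-fold to 2.54-fold). Krt8 and Krt18 accordingly made up 65.3% to 71.0% of keratin UMIs there, less than in epithelial-like cells as a whole. Krt7 and Krt19 were found together in 65.0% to 68.4% of the state's thinned cells, against 20.3% to 27.5% of all epithelial-like cells. Krt8 and Krt18 were found together in 96.2%, 96.0%, 91.6% and 92.6% of the state's thinned cells. Independent detection within the state would have given 96.3%, 95.9%, 91.0% and 91.8%.

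The largest folds were in keratins of low level. Krt17, the injury-associated keratin, was at 77.7, 46.2, 14.0 and 16.8 CPM in the Mcpt1-led state, 11-fold to 14.4-fold above the rest. Krt14 was at 40.6, 44.3, 24.7 and 21 CPM, 7.36-fold to 17.1-fold above the rest. The Mcpt1-led state held between 73.3% and 88.2% of all Krt17 UMIs of epithelial-like cells and between 61.6% and 83.9% of Krt14 UMIs, from at most 20.2% of the cells. Krt79 was at 29.4, 37.4, 70.6 and 31.5 CPM, 4.04-fold to 8.80-fold above the rest. Krt20, at 17.8, 23.6, 2.23 and 6.70 CPM, passed 10 CPM in the vehicle libraries alone and was not counted as higher. Krt23 was at 92.3, 107.3, 70.8 and 77.4 CPM, 1.36-fold to 2.11-fold above the rest. Krt5 stayed at or below 0.60 CPM, so the Krt14 of this state again had almost no Krt5 beside it.

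Mcpt1, Mcpt2, Tpsab1 and Mcpt8 among its leading genes are mast cell or basophil proteases, so the mast cell marker list was read in the same cells. Of its 5 genes, Mcpt8 alone was present, at 76.1, 51.8, 151.4 and 128.0 CPM, and it made up nearly all of a summed level of 76.9, 51.9, 152.0 and 128.2 CPM. The defining genes Cpa3, Ms4a2, Fcer1a and Gata2 were each at or below 0.61 CPM in the state. The whole list summed to 4311 and 5704 CPM in the mast or basophil-like cells before depletion. The alveolar macrophage list summed to between 71.4 and 128.9 CPM in the Mcpt1-led state, against 12930 and 10640 CPM in alveolar macrophage-like cells.

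Krt17 was carried by few cells. Before depletion in vehicle, 26 of 1090 epithelial-like cells had a Krt17 UMI, and the 10 highest cells held 90.5% of the UMIs. After depletion in vehicle, 224 of 6526 had one, and the 10 highest held 37.1%. In the libraries labelled tamoxifen, 12 of 1109 and 70 of 7087 cells had one, and the 10 highest held 97.5% and 61.3%. The single-library intervals above treat UMIs as independent, which they are not where a few cells hold most of them. Krt7, in comparison, was spread over 78.9% to 85.7% of epithelial-like cells.

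Within the Mcpt1-led state Krt14 was found more often in cells with Krt17 than in cells without it in 3 of the 4 libraries. In the vehicle library before depletion, 12 of 15 cells with Krt17 also had Krt14 (80.0%, exact 95% interval 51.9% to 95.7%), against 12 of 120 cells without Krt17 (10.0%). After depletion the shares were 67 of 146 (45.9%) against 142 of 1172 (12.1%). In the library labelled tamoxifen before depletion none of 8 cells with Krt17 had Krt14, which with 8 cells leaves an upper bound of 36.9%, against 12 of 123 without it (9.76%). After depletion the shares were 15 of 50 against 110 of 1167 (9.43%). Cells with Krt17 were deeper in 3 of the 4 libraries, with medians of 49615, 25680.5 and 21224 UMIs against 32133, 19980 and 17673, and the part of depth in these shares was not tested.

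A smaller keratin-rich state was led by Inhba, Npy, Fbln2 and Fst and passed 50 cells in the libraries after depletion alone, with 111 cells from vehicle and 102 from tamoxifen. It had the highest Krt18 of any state, at 6311 and 4974 CPM, together with Krt8 at 4173 and 2758 CPM and Krt7 at 1405 and 1237 CPM. Krt20, the gastrointestinal keratin, was highest here too, at 44.8 and 20.4 CPM against 6.63 and 1.47 CPM in the other epithelial-like cells. Krt7, Krt8, Krt18 and Krt20 met the rule, as did 10.3% of all genes, and Krt20 reached 10 CPM in this state and not in the rest. Krt19 did not share in it, at 680 and 549 CPM, 1.08-fold and 1.23-fold above the rest. Krt14 was at 18.9 and 20.1 CPM and was not counted. Krt17 was at 5.99 and 0.31 CPM, and Krt79 at 3.15 and 3.77 CPM, below the other epithelial-like cells in both libraries. Krt7, Krt8 and Krt18 were thus counted in both keratin-rich states, Krt19, Krt17, Krt14 and Krt79 in the Mcpt1-led state, and Krt20 in the Inhba-led state.

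**Figure D2:**
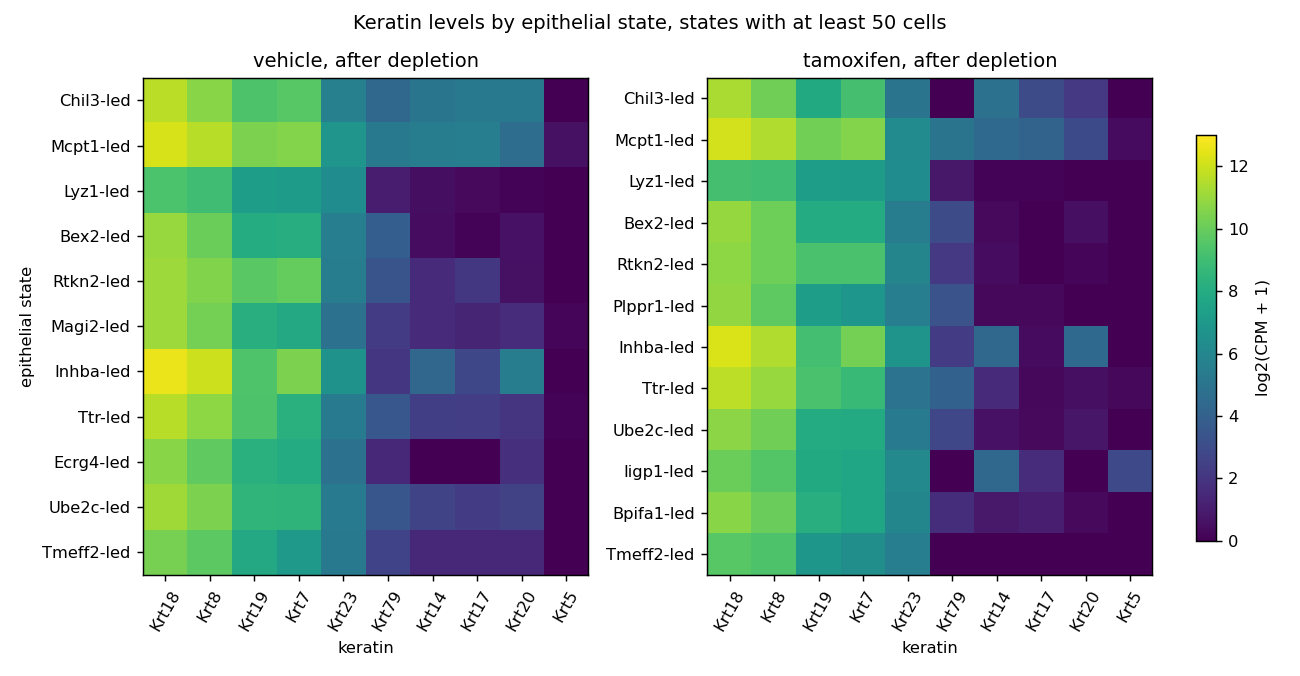
Levels of the 10 keratins in each epithelial state with at least 50 cells, as log2(CPM + 1) by colour, in the libraries after depletion. The Mcpt1-led and Inhba-led rows are brightest for Krt18, Krt8 and Krt7, and Krt17, Krt14 and Krt79 are raised in the Mcpt1-led row. The Chil3-led row, of few and shallow cells, is also raised for Krt14, and for Krt17 and Krt79 in vehicle. Krt14 is raised in the Inhba-led row too.

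The alveolar type 2-like state lay at the other end. This Lyz1-led state, named from its markers, had the lowest Krt8 of all states in every library, at 447, 510, 448 and 515 CPM. Its Krt18 was also the lowest, at 412, 627, 488 and 580 CPM, and keratins took 0.119%, 0.153%, 0.129% and 0.149% of its UMIs. Krt17 was at or near 0 in it, with 0, 0.26, 0 and 0.07 CPM. The Rtkn2-led state, alveolar type 1-like by its markers, had Krt7 at 724, 982, 642 and 625 CPM and Krt19 at 656, 802, 568 and 607 CPM, and keratins took 0.422%, 0.557%, 0.399% and 0.421% of its UMIs. This was the second highest Krt7 among states in both libraries before depletion, below the Mcpt1-led state. Krt23 stayed between 29.1 and 107.3 CPM over the states with at least 50 cells in a library. The Iigp1-led state, led by interferon-induced genes, passed 50 cells in 1 library, tamoxifen after depletion. Its Krt14 was at 19.1 CPM against 4.77 CPM in the rest, where 4.93% of all genes were called higher, but all 18 UMIs came from 1 of 62 cells. Its Krt5 was at 6.37 CPM, from 6 UMIs in 1 cell.

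The balance of partners also differed between states. The ratio of Krt18 to Krt8 UMIs was 0.922, 1.23, 1.09 and 1.13 in the alveolar type 2-like state. It was 1.40, 1.58, 1.48 and 1.60 in the Mcpt1-led state. In the Plppr1-led state, found almost only in the libraries labelled tamoxifen, it was 2.18 and 2.17. Krt19 to Krt7 was 0.484 and 0.444 in the Inhba-led state and 2.92, 2.21 and 1.42 in the Ttr-led state of gastrointestinal-like cells, in the vehicle libraries and the library labelled tamoxifen after depletion. A state found mostly in 1 library or treatment may be that library rather than a type.

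**Figure D3:**
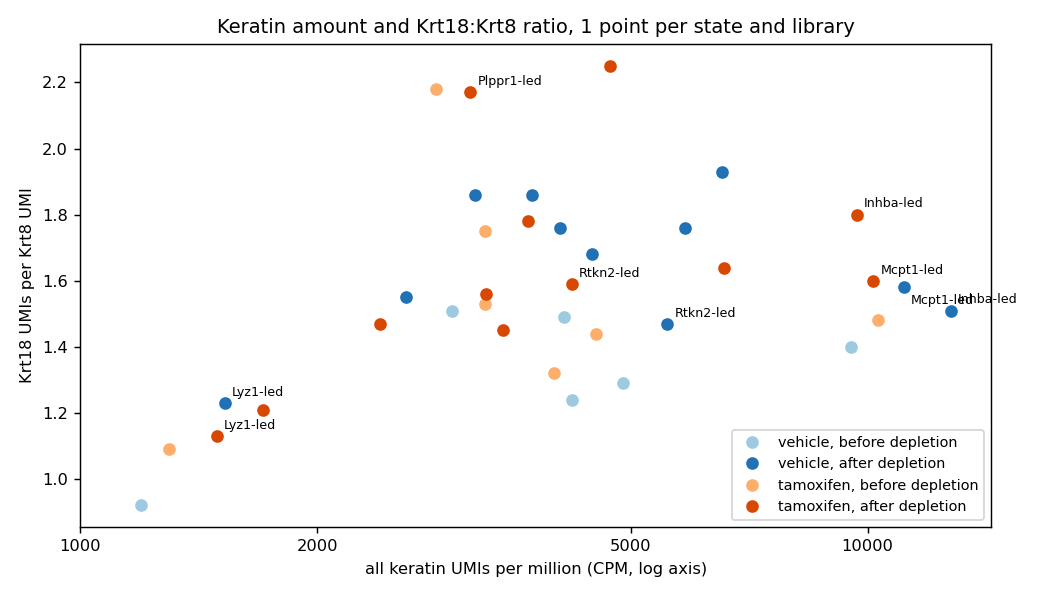
Ratio of Krt18 to Krt8 UMIs against the CPM of all keratins together (log axis), 1 point per state and library with at least 50 cells, coloured by library. The alveolar type 2-like (Lyz1-led) points lie at the lower left, the Mcpt1-led and Inhba-led points at the right, and the Plppr1-led points near a ratio of 2.2.

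The states were also read for genes whose level followed a keratin most closely, as Pearson correlations of log2(CPM + 1) over 36 units, each a state in a library, among 11483 genes. The units share libraries and several come from the same suspension, so these are descriptions. Krt17 was followed by Tpsab1 (0.891), a mast cell tryptase gene, then Krt14 (0.831), Cdhr2 (0.817), Eps8l3 (0.782) and Psca (0.776). Tpsab1 stood at 97.3, 133.3, 51.6 and 71.2 CPM in the Mcpt1-led state. Krt7 was followed by Wnt7a (0.939), Capzb (0.938), Cavin1 (0.931), Prxl2c (0.911) and Krt19 (0.91). Among the genes that followed Krt8 were Nlrp4e (0.967), Tnfrsf12a (0.964), its partner Krt18 (0.958) and the tight junction gene Cldn4 (0.935). Krt23 followed the others least, with 0.24 to Krt8 and 0.299 to Krt17.

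Genes that work beside keratins were counted in the same way, beside 4.35% of all genes higher in the Mcpt1-led state and a median log2 difference of 0.15 to 0.16 over all genes. Of 12 desmosome and plakin genes, which anchor keratin filaments to cell contacts, 11 passed the minimum and 2 were higher in the Mcpt1-led state, Pkp3 (50.2, 40.2, 43.3 and 37.2 CPM) and Plec (240.0, 184.8, 207.5 and 191.1 CPM). Of 11 other intermediate filament genes 3 passed and 1 was higher, Vim, at 270.6, 243.2, 238.4 and 174.1 CPM. Of 16 genes of the alveolar transitional state, all passed and 14 were higher. The 16 include the 9 transitional markers already read for this state, so the count adds no separate support. Cldn4 was at 384, 382, 332 and 347 CPM and Lgals3, which encodes galectin-3, at 1636, 1951, 1549 and 1569 CPM. Hbegf and Ccn1 were the exceptions. Of 8 basal cell genes 5 passed and 1 was higher, the integrin gene Itga6, at 471, 388, 483 and 425 CPM. The basal regulator Trp63 was at or below 0.373 CPM in epithelial-like cells. The median log2 difference of the Mcpt1-led state from the rest was 0.78 to 1.08 for the desmosome list, 0.81 to 0.92 for the filament list, 1.42 to 1.82 for the transitional list and 0.58 to 1.31 for the basal list. These genes were among those clustered on.

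Between treatments the abundant keratins differed by less than 1.5-fold in epithelial-like cells, and Krt17 and Krt20 stood lower in the libraries labelled tamoxifen, Krt20 below the minimum set for a count. A keratin was counted as apart when it differed at least 2-fold in the same direction in both pairs of libraries, before and after depletion, with 10 CPM in either library of each pair. By this rule Krt17 was lower in the libraries labelled tamoxifen, and no member was higher. Krt17 reached the minimum through its vehicle libraries alone, so the filter admitted it through the group where it is high. Krt7, Krt8, Krt18, Krt19, Krt23 and Krt79 reached it as well and were not counted. Of 9039 genes tested, 0.896% were lower and 0.387% higher. Krt17 was 7.28-fold lower before depletion (5.75 to 9.33) and 3.43-fold lower after it (3.09 to 3.81). The median log2 ratio of all genes was -0.04 before and 0.01 after depletion. Fewer cells with a transcript and less of it per cell cannot be told apart in these sums. Counted by cell without thinning, 2.39% of epithelial-like cells in vehicle and 1.08% in the library labelled tamoxifen had a Krt17 UMI before depletion. After depletion the shares were 3.43% and 0.988%. The share of cells was thus lower in both pairs. Before depletion there were 529 UMIs in 26 cells in vehicle and 80 in 12 cells in the library labelled tamoxifen. After depletion there were 1590 in 224 cells and 457 in 70 cells. A difference in the amount per cell with a UMI was not tested. The difference rested on few cells. Without the cluster of epithelial-like cells that had a mast cell gene among its leading genes, the log2 ratios of Krt17 were -1.09 and -0.97, and it was no longer counted. With a mean over cells in place of the sum they were -1.64 and -1.27, and Krt17 fell under the minimum.

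Krt20 and Krt14, the other type I keratins of low level, also stood lower without being counted. Krt20, below the minimum, was 5.29-fold lower before depletion (3.68 to 7.81) and 3.92-fold lower after it (3.41 to 4.51). Krt14 was 1.35-fold (1.11 to 1.63) and 2.41-fold (2.20 to 2.65) lower. The 4 simple keratins and Krt23 differed by at most 1.40-fold in either pair. Krt8 was 1.09-fold and 1.23-fold lower in the libraries labelled tamoxifen. Krt18 was level before depletion (0.99 to 1.01 of the vehicle value) and 1.25-fold lower after it. Krt19 was likewise level before depletion (0.99 to 1.03 of the vehicle value) and 1.40-fold lower after it. State shares differed, and their part in these ratios was not tested. After depletion the Ttr-led state held 17.5% of epithelial-like cells in vehicle and 1.54% in the library labelled tamoxifen. The Bpifa1-led state held 0.46% and 23.3%. In the same libraries Krt19 was at 151 and 151 CPM in the Lyz1-led, 1391 and 1201 in the Mcpt1-led and 802 and 607 in the Rtkn2-led state. Krt79 was 1.89-fold higher before depletion and 1.57-fold lower after it, so its pairs pointed in opposite directions. These pairs of Krt79 differed by more than counting error although each holds portions of the same suspensions. That error treats UMIs as independent, which they are not here. Before depletion the 10 highest epithelial-like cells held 50.2% of the Krt79 UMIs in vehicle and 55.7% in the library labelled tamoxifen.

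**Figure D4:**
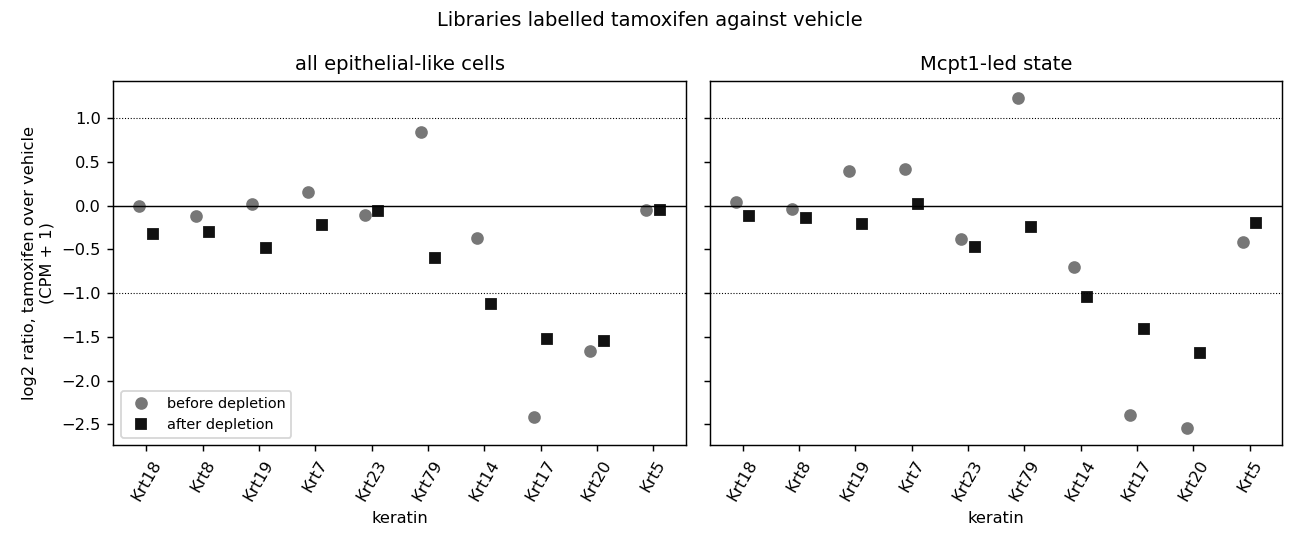
Log2 ratio of the library labelled tamoxifen over vehicle for each keratin, on (CPM + 1), before depletion (circles) and after depletion (squares), in all epithelial-like cells (left) and in the Mcpt1-led state (right); dotted lines mark 2-fold. Krt17 and Krt20 lie below the lower line in both panels and both pairs, and the simple keratins lie near 0.

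How far portions of 1 suspension can differ is shown by the libraries before and after depletion. None of the members was at least 2-fold apart in the same direction in both treatments, where 0.437% of 8928 genes were lower after depletion and 0.0224% higher. Krt18 was 1.47-fold higher after depletion in vehicle and 1.18-fold higher in the libraries labelled tamoxifen. Krt79 was 1.74-fold higher after depletion in vehicle and 1.71-fold lower in the libraries labelled tamoxifen. Krt17 was 1.41-fold lower in vehicle and 1.51-fold higher in the libraries labelled tamoxifen, less than its difference between treatments in either pair.

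The difference in Krt17 was also read within states. In 31 combinations of a state and a keratin with enough cells and UMIs in both pairs, 3 were lower in the libraries labelled tamoxifen and none was higher. In the Mcpt1-led state Krt17 was 5.56-fold (4.29 to 7.29) and 2.76-fold (2.46 to 3.09) lower, before and after depletion. It was above 10 CPM in that state in all 4 libraries. Before depletion its UMIs came from 15 of 135 cells in vehicle and 8 of 131 in the library labelled tamoxifen. The 10 highest cells held 97.9% of them in vehicle before depletion. After depletion the 10 highest held 43.8% and 66.5%. The intervals treat these UMIs as independent. Krt20 was 8-fold (4.26 to 16.6) and 3.53-fold (2.97 to 4.22) lower in the Mcpt1-led state, but it reached 10 CPM in vehicle alone. Its value in the library labelled tamoxifen before depletion rests on 11 UMIs in 7 cells. In this state 0.726% of all genes were lower and 0.442% higher by the same rule. Krt14 was 1.65-fold and 2.11-fold lower and not counted. Krt7 was 1.34-fold higher before depletion and 1.01-fold higher after it, and Krt79 2.40-fold higher and 1.19-fold lower. After depletion, 189 of 1318 Mcpt1-led cells from vehicle had a Krt20 UMI (14.3%, without thinning) and 67 of 1217 from the library labelled tamoxifen (5.51%).

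The third combination was Krt17 in the Chil3-led state, where 0.61% of all genes were lower and 0.368% higher. Macrophage genes led this state (Chil3, Ccl6, Laptm5, Ctss), and Chil3 was at 669, 0, 748 and 0 CPM in it, so its cells differed in kind before and after depletion. Krt17 was at 22.1, 37.1, 2.04 and 7.01 CPM there, from 69, 15, 8 and 2 UMIs in 1.94%, 1.68%, 1.67% and 3.85% of 155, 119, 120 and 52 cells, so the count rests on very few cells. It reached 10 CPM there in vehicle alone, so the filter admitted it through the group where it is high. The part of the macrophage transcripts in these values was not tested. Without the Chil3-led state Krt17 was counted as lower in epithelial-like cells all the same.

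Of the genes in these 4 lists that passed the minimum, none differed at least 2-fold the same way between treatments in both pairs. The median log2 ratio before and after depletion was -0.13 and -0.20 for the desmosome list, -0.27 and -0.29 for the filament list, -0.17 and -0.18 for the transitional list and -0.09 and 0.24 for the basal list.

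Krt79 was examined as a keratin outside the epithelium. In the libraries before depletion it stood at 24.1 CPM (21.6 to 26.9) in alveolar macrophage-like cells from vehicle and 18.5 CPM (16.6 to 20.6) in those of the library labelled tamoxifen. Epithelial-like cells of the same libraries had 8.48 and 16.0 CPM. The log2 ratio of macrophage over epithelium was 1.41 in vehicle and 0.20 in the library labelled tamoxifen, so a difference of 2-fold was reached in vehicle alone. Of 9768 genes tested, 15.7% were at least 2-fold higher in alveolar macrophage-like cells in both libraries. A Krt79 UMI was found in 3.63% and 3.15% of thinned alveolar macrophage-like cells and in none of the endothelial-like cells, whose upper bound was 2.35% and 2.43%. Monocyte or macrophage-like cells were lower, at 0.945 and 0.854 CPM. Fibroblast-like cells stood at 15.3 and 7.01 CPM. The Mcpt1-led epithelial state, at 29.4 and 70.6 CPM before depletion, exceeded alveolar macrophage-like cells in both libraries. By summed CPM, Krt79 therefore did not set macrophages apart from the epithelium in these libraries. By cell, 1.66% and 1.64% of thinned epithelial-like cells had a Krt79 UMI, below the shares of alveolar macrophage-like cells. The 10 highest epithelial-like cells held 50.2% and 55.7% of the Krt79 UMIs of their class. Over 21 units of a cell class in a library before depletion, among 12142 genes, the genes closest to Krt79 were Romo1 (0.825), Hs1bp3 (0.817), Syde2 (0.806), Ahnak2 (0.8) and Perp (0.795).

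Alveolar macrophage-like cells also held Krt19. Its level was 92.4 CPM (87.4 to 97.7) in vehicle and 48.0 CPM (44.9 to 51.3) in the library labelled tamoxifen, and 14.0% and 8.06% of thinned cells had a UMI. In the same libraries, before depletion, fibroblast-like cells had 25.5 and 26.3 CPM, and neither endothelial-like nor monocyte or macrophage-like cells passed 16 CPM. Endothelial-like cells after depletion had 58.5 and 32.6 CPM. Krt8, the more abundant gene in epithelium, was at 11.7 and 15.2 CPM in alveolar macrophage-like cells, and between 10.9 and 46.8 CPM in monocyte or macrophage-like, T cell-like, B cell-like, NK cell-like, dendritic cell-like and neutrophil-like cells. Krt19 to Krt8 was 7.88 (6.67 to 9.36) and 3.15 (2.75 to 3.61) in alveolar macrophage-like cells, against 0.333 and 0.365 in epithelial-like cells of the same libraries. The macrophages led by Chil3 and Wfdc21 had more Krt19 (122.0 and 70.3 CPM) than those led by Lepr and Kcnip4 (69.8 and 36.6 CPM).

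**Figure D5:**
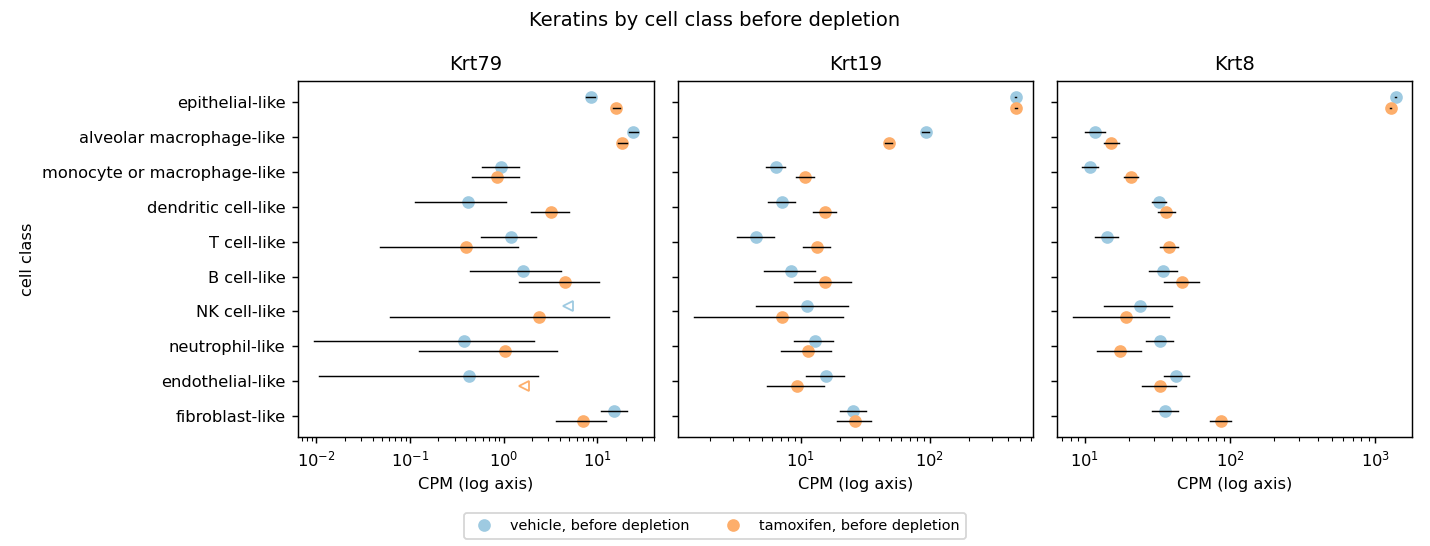
Krt79, Krt19 and Krt8 by cell class in the 2 libraries before depletion, in CPM on a log axis with exact Poisson 95% intervals; open triangles mark the limit that a count of 0 allows. Krt79 in alveolar macrophage-like cells lies above all other classes in both libraries, but in the library labelled tamoxifen its interval overlaps that of epithelial-like cells. Krt19 in alveolar macrophage-like cells lies between epithelial-like cells and all other classes, while Krt8 does not.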

How the data were processed

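The deposited files hold raw UMI counts per gene and cell barcode in sparse matrices, 1 per library, made with Cell Ranger, version 7.0.1 per the file headers and 7.2.0 per the submitters' processing notes, which name build mm10. Gene IDs were matched to GENCODE M21 (32158 of 32289). A cell needed 200 detected genes, and mitochondrial UMIs could not exceed 20%. Scrublet's automatic threshold marked 188, 1, 1 and 0 cells, so cells scoring above 0.25 (225, 120, 116 and 153) were left out, a choice made after seeing the data. Cells were clustered with scanpy 1.11.5 (2000 variable genes, 15 neighbours, Leiden resolution 1.0 for classes and 0.5 for states, igraph 0.11.9) without any keratin. Clusters were named from marker lists. The cluster with a mast cell gene among its leading genes was kept as epithelial-like after seeing the data. Raw counts were summed per class or state and library and scaled to CPM. Log2 ratios, the 2-fold rule and folds of a state over the remaining cells carry a pseudocount of 1 CPM. Folds between treatments or between libraries before and after depletion carry none, nor do ratios between keratins. Intervals are exact (Poisson, Clopper-Pearson, conditional binomial). Scaling with edgeR 4.0.16 TMM factors was an alternative. The size rule was tested on simulated data. All 10 keratins are named. For Krt17, Krt7, Krt8 and Krt79 the 5 most similar genes were taken, and gene lists are given by counts. Some items are not reported here. Members and lists were chosen with earlier results of these data known. Depth per library was 104147479, 144994771, 92644997 and 141742060 UMIs in 7658, 7284, 6558 and 7867 barcodes.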

Additional observations from a re-analysis of the deposited data

Results flagged for a closer look

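Krt7 and Krt79 were picked out because their pairs of libraries pointed in opposite directions between treatments in epithelial-like cells. The log2 ratio of Krt7 in the library labelled tamoxifen over vehicle was 0.16 before depletion and -0.22 after it. That of Krt79 was 0.84 before depletion and -0.60 after it. The difference between the pairs was not tested, since each group holds 1 library. Before depletion the 10 highest epithelial-like cells held 50.2% and 55.7% of the Krt79 UMIs in vehicle and in the library labelled tamoxifen.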

How the results depend on the processing

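No paired analysis was possible because each group holds 1 library. The count of keratins lower in epithelial-like cells of the libraries labelled tamoxifen was 1 (Krt17). It was 0 with a pseudocount of 5 CPM, 0 with the CPM of each cell averaged in place of summed counts, and 0 without the epithelial-like cluster with a mast cell gene among its leading genes, an alternative chosen after seeing the data. It was 2 (Krt17 and Krt20) with no CPM minimum. Under the remaining alternatives run it stayed 1, and none was higher under any. The log2 ratio of Krt17 ranged from -2.81 to -1.09 before and from -1.75 to -0.97 after depletion. That of Krt14 before depletion, -0.37 as reported, ranged from -0.58 to 0.81. Of 520 ratios of single keratins under an alternative, 119 moved past counting error, and no counted keratin changed sign. The number of keratins counted as higher in some state was 8 and ranged from 7 to 9, and the count within states was 3 or 2. The log2 ratio of Krt79 in alveolar macrophage-like over epithelial-like cells ranged from 1.41 to 1.498 in vehicle and from 0.20 to 0.39 in the library labelled tamoxifen. Depth limits Krt5, Krt20 and Krt17, whose values rest on few cells.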

Other observations

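Among the keratins not followed above, Krt83, chosen after its values were seen, was a gene of T cell-like cells. It stood at 114.3 CPM (107.1 to 121.7) and 110.4 CPM in T cell-like cells of the vehicle library and the library labelled tamoxifen before depletion, against 0.466 and 0.113 CPM in epithelial-like cells. The cluster led by Trdc, Cd163l1 and Il17a, genes of gamma-delta T cells that make interleukin 17, had 276.6 and 311.3 CPM, with a Krt83 UMI in 58.1% and 63.8% of its cells. Krt80, likewise chosen after its values were seen, was at 29.2 and 64.8 CPM in endothelial-like cells, 15.02 and 7.69 CPM in dendritic cell-like cells, 14.8 and 13.7 CPM in monocyte or macrophage-like cells, 12.8 and 16.96 CPM in neutrophil-like cells, 9.60 and 8.52 CPM in epithelial-like cells and 0.817 and 1.41 CPM in alveolar macrophage-like cells.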
